A study of Mus musculus with 12 samples.

Results

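The 41 genes described here encode the core machinery of macroautophagy, and they were taken by gene name from the 57490 genes of a kidney count table. They were sorted by the step they serve: 5 genes act in initiation, 6 in nucleation, 8 in lipid transfer to the growing membrane, 14 in conjugation, 5 as cargo receptors and 3 in fusion with the lysosome. All 41 were found, and all 41 passed the filter on low counts that left 17431 genes for testing. The 12 male mice formed 3 groups of 4, each library from 1 mouse. Ctrl mice were BKS db/+ (db/m) heterozygotes given purified water, Model mice were BKS db/db mice given purified water, and YHY mice were db/db mice given a water extract of Yiqi Huoxue Yangyin Decoction, a herbal formula, at 6.24 g/mL. The strain carries the Leprdb mutation of the leptin receptor together with Dock7m, and the db/db mice had been selected for high random blood glucose. All mice were dosed by gavage each day for 4 weeks, with 50 µL for every 10 g they weighed, and kidneys were taken at 13 weeks of age. The sample labels call the tissue whole kidney, whereas the series description calls it cortex, and the dose group that was sequenced is not named.

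Autophagy encloses part of the cytoplasm in a double membrane and delivers it to the lysosome. The ULK1 complex starts the process, a lipid kinase complex around BECN1 marks the membrane, ATG2 and ATG9 proteins supply lipid, and a pair of ubiquitin-like conjugation systems attach LC3 and GABARAP proteins to it, to which cargo receptors bind before a SNARE complex drives fusion. Tubule cells and podocytes of the kidney depend on this pathway to clear damaged mitochondria and protein aggregates.

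Libraries held between 24415658 and 33276634 counts per mouse. Levels are given as FPKM, the deposited counts scaled to the deposited gene length and to the TMM-adjusted library size, so that genes of different length can be compared. In Ctrl the median of the 41 mean levels was 5.36 FPKM, and the order ran from Gabarapl1, a GABARAP family protein, at 226 ± 22.5 FPKM through Gabarap at 159 ± 7.61 and Sqstm1 at 118 ± 9.52 FPKM (SD, n = 4) down to Atg9a, a lipid scramblase, at 0.717 ± 0.180 FPKM. Atg9a lies across Ankzf1 on the opposite strand, which had 747% as many counts, and the use of strand in the counting is not stated, so the place of Atg9a in this order is uncertain. The ranges of Gabarap and Sqstm1 in Ctrl did not overlap, and neither did those of Gabarapl1 and Gabarap.

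Model against Ctrl asks how the kidney of untreated db/db mice differed from that of db/m mice. In this design diabetes and the db/db genotype cannot be told apart. Between these groups most conjugation genes and 3 of 5 cargo receptors were lower, Ulk1 and Optn were higher, and no lipid transfer gene passed the test with TMM scaling. Of the 41 members, 18 fell, with P adjusted over every gene tested and called below 0.05, a share of 43.9%, where 18.5% of all genes did. In the other direction 2 members rose, 4.88% against 19.6% of all genes, and 21 were not called. The median log2 fold change of the members was -0.38, beside 0.038 over all genes, with 30 members negative and 11 positive. Fold changes of single genes are given on the log2 scale with ± 1 standard error of the fit. In 20 members every Model mouse lay below every Ctrl mouse, which held for 20.3% of all genes, and in 2 members every Model mouse lay above, against 19.9% of all genes. Members are abundant genes, and among the 10870 genes at or above the lowest member's mean library-scaled count 26.7% were lower and 19.8% higher. The number lower ran from 15 to 19 when single mice were left out. In bulk tissue, fewer cells of a type and less RNA per cell cannot be told apart.

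By step, 10 of 14 conjugation genes fell in Model, with a median of -0.71. Among cargo receptors, 3 of 5 fell and 1 rose (median -0.41). In initiation, 2 of 5 genes fell and 1 rose (median -0.40), in nucleation 2 of 6 fell (median -0.15), and in fusion 1 of 3 fell (median -0.064). Beside these counts, 18.5% of all genes were lower and 19.6% higher, and 26.7% and 19.8% of the 10870 abundant genes. The share lower was 71.4% in conjugation, 60% among cargo receptors, 40% in initiation and 33.3% in both nucleation and fusion. Steps other than conjugation hold few genes, and no step's share was tested against that of all genes. Over 22 alternatives, the study's own limits left aside, the number lower ran from 9 to 12 in conjugation, 1 to 3 among cargo receptors, 2 to 3 in initiation, 1 to 3 in nucleation and 1 to 3 in fusion. Only 1 of 5 cargo receptors was lower with upper-quartile scaling, and again without Model 4, and only 1 of 6 nucleation genes was lower with upper-quartile scaling, without a filter beyond 1 count, with at least 10 counts in every mouse, without Model 2 or with offsets for gene length and GC content. The median of the 8 lipid transfer genes was 0.014. By edgeR with TMM on all 12 mice and no block 0 of them were called, with 1 at an unadjusted P under 0.05. DESeq2 also called 0. This count depended on the setting. With library size alone edgeR called Atg2b, Wdr45b and Vmp1 lower, with only the 8 mice compared Atg2b lower and Atg2a higher, over the 9 mice of the authors' means Atg2b and Vmp1 lower, and with upper-quartile scaling, with the replicate block or without YHY 2 Atg2a higher.

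YHY against Model asks what the extract altered in db/db mice. Here few members changed: Wipi2, Wdr45b, Atg5 and Map1lc3a fell, and Vmp1, Calcoco1 and Stx17 rose. These 4 lower members make 9.76% of the 41, beside 7.62% of all genes, and the 3 higher members 7.32%, beside 5.63%, so both shares were near those of all genes. Among the 10870 genes as abundant as members, 11.2% were lower and 7.92% higher. The median was 0.12, against 0.022 over all genes. The largest log2 fold change of any member was that of Atg2b, a lipid bridge, at 0.76 ± 0.24 (adjusted P = 0.0503), which just missed the limit. Atg2b was called higher in 7 of 22 alternatives, with an adjusted P of 0.0249 by DESeq2, 0.0391 with upper-quartile scaling, 0.0422 with mitochondrial transcripts removed before TMM, 0.0164 without a filter beyond 1 count, 0.0393 with at least 10 counts in every mouse, 0.0101 without YHY 1 and 0.0363 without YHY 3. The counts depended on single mice. Without Model 1 only 1 member was lower, and without YHY 1 or YHY 2 there were 2. Without Model 2 or Model 3 the count of higher members by edgeR was 0, with 8 and 7 at an unadjusted P under 0.05, and without Model 4, YHY 2 or YHY 4 it was 1. With only the 8 mice compared 1 member was lower, and over the 9 mice of the authors' means, which leave out Ctrl 2, Model 1 and YHY 4, there were 2.

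YHY against Ctrl shares its mice with both other comparisons, and sets treated db/db mice against db/m mice. Again conjugation genes made up most of the lower members. Of the 41, 16 were lower (39.0%, against 24.2% of all genes) and 7 higher (17.1%, against 26.1%). Among the 10870 abundant genes 34.5% were lower and 26.6% higher, so the share of lower members was near that of abundant genes. The median was -0.32, against 0.10 over all genes. By step, 10 of 14 conjugation genes were lower (median -0.97), and Ulk1, Ambra1, Atg2a, Optn, Calcoco1, Stx17 and Epg5 were higher. With offsets for gene length and GC content 10 conjugation genes were lower as well, but not the same ones. Atg4c (adjusted P = 0.0541) and Gabarapl2 (adjusted P = 0.102) lost their calls, and Atg4b and Atg4d gained theirs. Without Ctrl 1 or Ctrl 4 the higher members numbered 4. With library size alone 21 members were lower and 2 higher, where 34.3% and 13.6% of all genes were. With upper-quartile scaling these were 15 and 10, beside 20.7% and 30.0% of all genes. Epg5, a tether for fusion with the lysosome, was at the edge of the limit at 0.37 ± 0.15 (adjusted P = 0.0487). Its call was lost in 18 of 22 alternatives, and the adjusted P of Epg5 was 0.0546 by DESeq2, 0.730 with scaling by library size alone, 0.198 without a filter beyond 1 count, 0.0783 with only the 8 mice compared, 0.0906 over the 9 mice of the authors' means, 0.0641 with the replicate block, 0.170 without Ctrl 1, 0.0924 without Ctrl 2, 0.123 without Ctrl 3, 0.151 without Ctrl 4, 0.0743 without Model 1, 0.0650 without Model 2, 0.0589 without Model 3, 0.0643 without Model 4, 0.157 without YHY 2, 0.0659 without YHY 3, 0.0549 without YHY 4 and 0.546 with offsets for gene length and GC content. With library size alone its log2 fold change also took the other sign, at -0.081.

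The scaling of the libraries moved all genes together. With library size alone, the median of all genes shifted from 0.038 to -0.39 in Model against Ctrl and from 0.10 to -0.33 in YHY against Ctrl, and with upper-quartile scaling to 0.14 and 0.22. The share of all calls that were higher moved with library size alone from 51.5% to 21.4% and from 51.9% to 28.4%. A change of scaling by itself hardly alters the distance of the members' median from that of all genes. In Model against Ctrl it was -0.42 with TMM, -0.36 with at least 10 counts in every mouse and -0.34 with offsets for gene length and GC content. With library size alone 27 members were lower and 2 higher in Model, including each of the 18 and the 2 called with TMM, while the shares of all genes became 32.5% lower and 8.87% higher. In YHY against Model 0 members were called in either direction by edgeR with library size alone, where 4 were lower and 6 higher at an unadjusted P under 0.05, and DESeq2 with its own size factors called 4 lower and 6 higher.

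**Figure D1:**
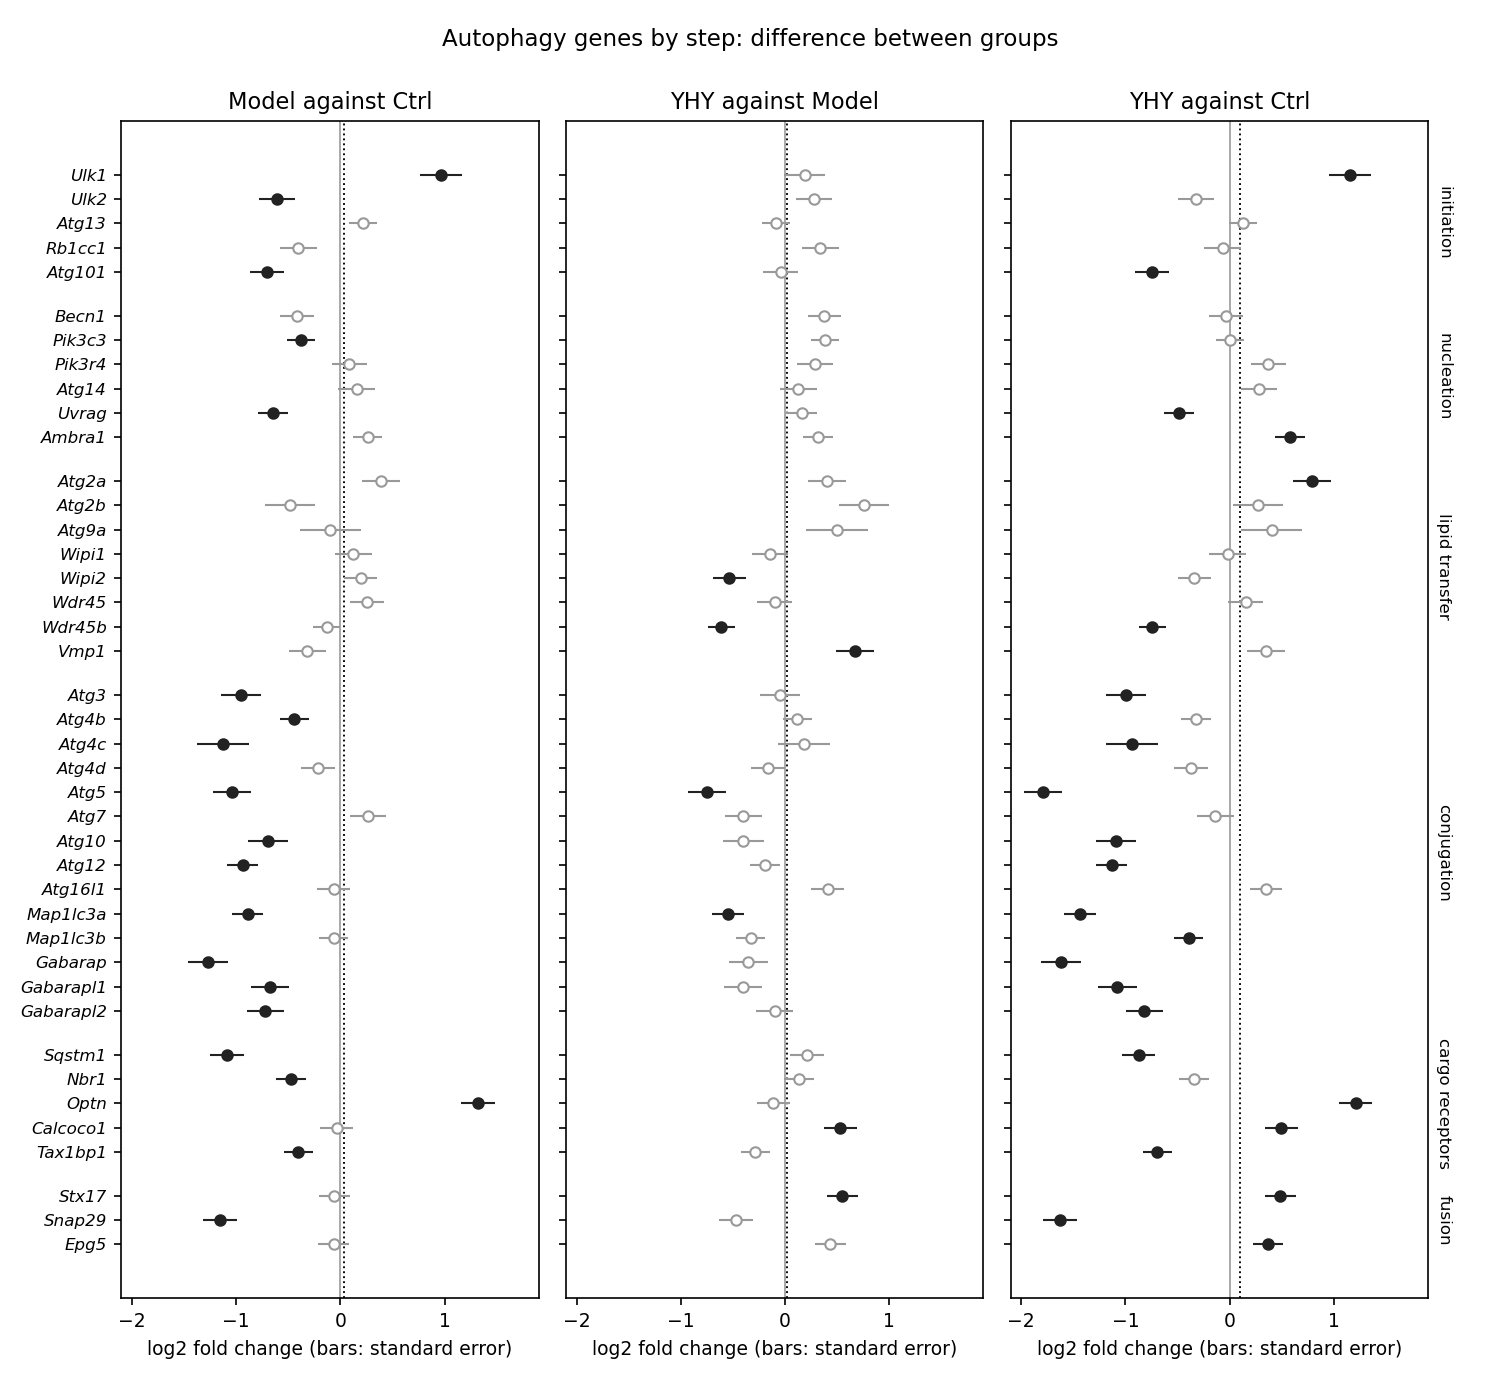
Log2 fold change of each of the 41 members, with its standard error, in 3 panels for Model against Ctrl, YHY against Model and YHY against Ctrl, ordered by step. Filled points have an adjusted P under 0.05 and the dotted line is the median of all genes tested. In Model against Ctrl 10 of the 14 conjugation genes are filled and below the line.

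Ulk1, the kinase that starts autophagosome formation (ENSMUSG00000029512, chromosome 5, 110932354 to 110957963), was measured at 5.44, 5.99, 5.45 and 5.58 FPKM in Ctrl 1 to 4, 7.84, 11.3, 11.7 and 13.0 in Model 1 to 4 and 10.6, 18.6, 9.63 and 11.3 in YHY 1 to 4. Every db/db mouse lay above every Ctrl mouse, Model 1 was the lowest of the db/db mice and YHY 2 the highest. Ulk1 rose in Model by 0.97 ± 0.20 (adjusted P = 0.00142) and stood at 1.15 ± 0.20 (adjusted P = 2.00e-04) in YHY against Ctrl. Between YHY and Model the groups overlapped and the log2 fold change was 0.19 ± 0.20 (adjusted P = 0.580), which became -0.066 without YHY 2. Of the partners of the kinase, Atg101 fell in Model, at -0.71 ± 0.17 (adjusted P = 0.00340). Ulk2, the related kinase, also fell, at -0.61 ± 0.17 (adjusted P = 0.0114). Atg13 and the scaffold gene Rb1cc1 were not called, at 0.22 and -0.40, though Rb1cc1 was called lower at an adjusted P of 0.00475 with scaling by library size alone, 0.00883 with only the 8 mice compared, 0.00684 over the 9 mice of the authors' means, 0.0424 without Model 1 and 0.0220 without YHY 4. Atg13 stood at -0.21 with library size alone. Between YHY and Model the 5 initiation genes ran from -0.091 to 0.34.

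In nucleation, Uvrag encodes a subunit of the BECN1 complex that also serves endosome traffic (ENSMUSG00000035354, chromosome 7, 98534228 to 98790348). Its levels were 2.29, 2.06, 2.39 and 2.48 FPKM in Ctrl 1 to 4, 1.48, 1.70, 1.32 and 1.38 in Model 1 to 4 and 1.72, 1.85, 1.63 and 1.37 in YHY 1 to 4. All 4 Ctrl mice were above all 8 db/db mice, and the Model and YHY mice overlapped. Uvrag fell in Model, at -0.65 ± 0.14 (adjusted P = 0.00239), and was lower in YHY than in Ctrl, at -0.49 ± 0.14 (adjusted P = 0.00981). Becn1, the scaffold of the lipid kinase complex (ENSMUSG00000035086, chromosome 11, 101176778 to 101193112), had 5.37, 3.80, 4.71 and 6.09 FPKM in Ctrl 1 to 4, 3.16, 3.80, 3.68 and 4.35 in Model 1 to 4 and 4.24, 5.73, 4.90 and 4.61 in YHY 1 to 4. Model mice were mostly low, but Model 4 lay within the Ctrl range and Model 2 at its lower edge. The log2 fold change of Becn1 was -0.41 ± 0.16 (adjusted P = 0.0543) in Model against Ctrl and 0.38 ± 0.16 (adjusted P = 0.137) in YHY against Model. Neither passed in the main fit. Becn1 was called lower in Model in 8 of 22 alternatives, with an adjusted P of 0.00272 with scaling by library size alone, 0.0485 with mitochondrial transcripts removed before TMM, 0.0350 with only the 8 mice compared, 0.0196 over the 9 mice of the authors' means, 0.0189 without Ctrl 2, 0.0467 without Ctrl 3, 0.0459 without Model 4 and 0.0439 without YHY 2. In YHY against Ctrl it was -0.037, with 0.086 under upper-quartile scaling. The lipid kinase gene Pik3c3 fell in Model at -0.38 ± 0.14 (adjusted P = 0.0381), close to the limit, and its adjusted P was 0.129 with upper-quartile scaling, 0.124 without a filter beyond 1 count, 0.0553 with at least 10 counts in every mouse, 0.0609 without Ctrl 2, 0.0684 without Ctrl 3, 0.0989 without Model 2, 0.0992 without Model 4 and 0.119 with offsets for gene length and GC content. Ambra1, a regulator of the complex, was higher in YHY than in Ctrl, at 0.58 ± 0.14 (adjusted P = 0.00304), where its adjusted P was 0.556 with scaling by library size alone and 0.0760 with offsets for gene length and GC content. Pik3r4 and Atg14 were not called in any of the 3 comparisons in the main fit. Pik3r4 was called higher in YHY than in Ctrl at an adjusted P of 0.0224 with upper-quartile scaling and 0.0404 with at least 10 counts in every mouse.

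Lipid transfer genes lay on both sides of 0 between Model and Ctrl, from -0.49 to 0.39. Atg2a, which encodes a bridge for lipid between membranes (ENSMUSG00000024773, chromosome 19, 6291698 to 6312365), was measured at 3.62, 4.45, 3.23 and 3.32 FPKM in Ctrl 1 to 4, 4.52, 5.32, 4.21 and 5.06 in Model 1 to 4 and 5.26, 9.07, 5.35 and 5.54 in YHY 1 to 4. YHY 2 stood well above the rest, and Ctrl 2 lay within the Model range. Its log2 fold change was 0.39 ± 0.18 (adjusted P = 0.104) in Model against Ctrl, the lowest adjusted P of this step, and -0.037 with library size alone. In this comparison Atg2a was called higher in 4 of 22 alternatives, with an adjusted P of 0.0396 with upper-quartile scaling, 0.0352 with only the 8 mice compared, 0.0435 with the replicate block and 0.0331 without YHY 2. Against Ctrl, Atg2a was higher in YHY, at 0.78 ± 0.18 (adjusted P = 0.00195), where the adjusted P was 0.125 with scaling by library size alone and 0.564 with offsets for gene length and GC content.

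Wipi2 encodes a reader of the marked membrane that recruits the conjugation machinery (ENSMUSG00000029578, chromosome 5, 142613453 to 142656343), and had 8.49, 10.7, 8.08 and 6.70 FPKM in Ctrl 1 to 4, 9.87, 10.3, 10.2 and 8.52 in Model 1 to 4 and 5.80, 6.88, 6.38 and 7.77 in YHY 1 to 4. Every YHY mouse was below every Model mouse, and the Ctrl mice overlapped both ranges. Wipi2 fell in YHY against Model, at -0.53 ± 0.16 (adjusted P = 0.0345). The call was lost in many settings, with an adjusted P of 0.0710 with scaling by library size alone, 0.0621 with only the 8 mice compared, 0.0543 with the replicate block, 0.0584 without Model 1, 0.0773 without Model 2, 0.0958 without Model 3, 0.0877 without YHY 1, 0.0567 without YHY 2 and 0.0710 without YHY 3. In Model against Ctrl its log2 fold change was 0.19, and -0.23 with library size alone.

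Wdr45b, a related membrane reader (ENSMUSG00000025173, chromosome 11, 121218050 to 121245271), had 5.83, 6.06, 6.002 and 6.49 FPKM in Ctrl 1 to 4, 5.20, 5.20, 6.13 and 5.70 in Model 1 to 4 and 4.19, 3.43, 3.21 and 3.71 in YHY 1 to 4. All 4 YHY mice lay below all 8 others, while Model and Ctrl overlapped. Wdr45b fell in YHY against Model, at -0.61 ± 0.13 (adjusted P = 0.00760), and against Ctrl, at -0.74 ± 0.13 (adjusted P = 2.01e-04). Its call against Model held without each single mouse, and was lost at an adjusted P of 0.0689 with scaling by library size alone. Vmp1, a scramblase of the endoplasmic reticulum (ENSMUSG00000018171, chromosome 11, 86474691 to 86574662), was measured at 32.2, 28.7, 26.2 and 27.1 FPKM in Ctrl 1 to 4, 27.1, 23.0, 22.7 and 18.9 in Model 1 to 4 and 34.6, 38.7, 24.8 and 47.4 in YHY 1 to 4. YHY 1, YHY 2 and YHY 4 were above all Model mice, but YHY 3 lay within the Model range. Vmp1 rose in YHY against Model at 0.67 ± 0.18 (adjusted P = 0.0252), and by the two-sided exact permutation test, which can give no P below 0.0286, its P was 0.0571. The adjusted P was 0.0712 with scaling by library size alone, 0.0564 without Model 2, 0.0746 without Model 3, 0.0756 without Model 4, 0.0539 without YHY 2 and 0.0577 without YHY 4. Against Ctrl the log2 fold change of Vmp1 was 0.35, and -0.10 with library size alone, and it was called higher at an adjusted P of 0.0337 with upper-quartile scaling, 0.0239 without YHY 3 and 0.00505 with offsets for gene length and GC content.

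**Figure D2:**
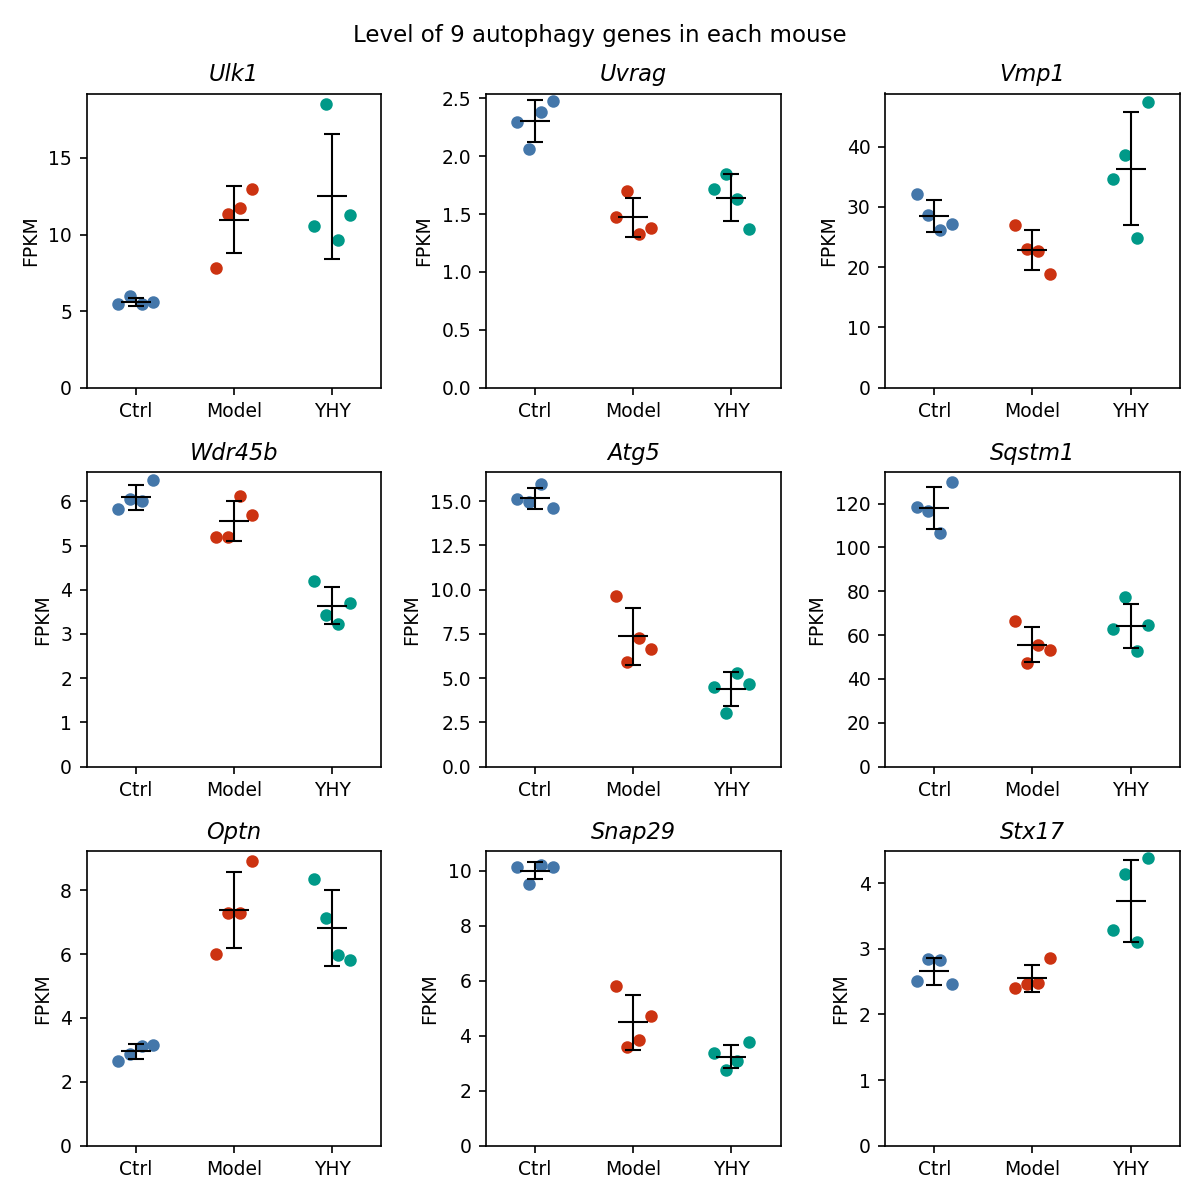
FPKM of Ulk1, Uvrag, Vmp1, Wdr45b, Atg5, Sqstm1, Optn, Snap29 and Stx17 in each of the 12 mice, by group, with the mean and SD of 4 mice. Ulk1 and Optn are higher in all 8 db/db mice than in the 4 Ctrl mice, and Uvrag, Atg5, Sqstm1 and Snap29 are lower.

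Conjugation is the largest step, and in Model against Ctrl it held the largest number of called genes. Atg5, a part of the ATG12-ATG5 conjugate that directs LC3 to the membrane (ENSMUSG00000038160, chromosome 10, 44144354 to 44240287), had 15.1, 14.9, 16.0 and 14.6 FPKM in Ctrl 1 to 4, 9.64, 5.89, 7.26 and 6.64 in Model 1 to 4 and 4.51, 3.01, 5.29 and 4.68 in YHY 1 to 4. The 3 groups did not overlap, with Ctrl highest and YHY lowest, and Model 1 was the highest of the db/db mice. Atg5 fell in Model, at -1.04 ± 0.18 (adjusted P = 3.67e-04), and fell further in YHY against Model, at -0.75 ± 0.18 (adjusted P = 0.0149). The latter call was lost in several settings, with an adjusted P of 0.0941 with scaling by library size alone, 0.0618 with only the 8 mice compared, 0.0703 over the 9 mice of the authors' means and 0.0573 without Model 1. Against Ctrl the log2 fold change in YHY was -1.79 ± 0.18 (adjusted P = 2.05e-06).

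Atg12, the partner of Atg5, fell in Model at -0.94 ± 0.15 (adjusted P = 1.55e-04). Atg3, the enzyme that passes LC3 to its lipid, fell at -0.95 ± 0.19 (adjusted P = 0.00116), and Atg10, which joins ATG12 to ATG5, at -0.69 ± 0.19 (adjusted P = 0.00978). The call for Atg10 was lost at an adjusted P of 0.227 with offsets for gene length and GC content. Of the proteases that trim LC3, Atg4c fell at -1.12 ± 0.25 (adjusted P = 0.00231). Atg4b fell by less, at -0.44 ± 0.14 (adjusted P = 0.0226), and its adjusted P was 0.0730 with upper-quartile scaling, 0.0799 without Model 2 and 0.0667 without Model 4. Atg4d and Atg16l1 were not called in the main fit, at -0.21 and -0.063. Atg4d was called lower at an adjusted P of 0.0122 with scaling by library size alone and 0.0355 with offsets for gene length and GC content, and Atg16l1 at 0.0410 with scaling by library size alone. Of the 41 members 7 lie across another gene with over 10% as many counts, namely Atg9a (747%), Snap29 (326%), Atg4b (213%), Atg2b (61.9%), Map1lc3b (35.3%), Rb1cc1 (20.8%) and Atg4d (19.1%).

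Atg7, the activating enzyme that both conjugation systems share (ENSMUSG00000030314, chromosome 6, 114620058 to 114837575), had 3.67, 4.76, 3.29 and 3.82 FPKM in Ctrl 1 to 4, 5.11, 4.42, 4.65 and 4.45 in Model 1 to 4 and 3.60, 2.29, 4.08 and 4.11 in YHY 1 to 4. Each Model mouse was above at least 3 of the 4 Ctrl mice and every YHY mouse was below every Model mouse, with YHY 2 the lowest. No comparison passed for Atg7, with log2 fold changes of 0.26 ± 0.18 (adjusted P = 0.254) in Model against Ctrl, -0.15 with library size alone, and -0.40 ± 0.18 (adjusted P = 0.145) in YHY against Model.

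Promoters of the members, of every step, were looked at for short sequence motifs as a description. RefSeq promoters on build GRCm38.p6, reaching from 250 bases before to 50 after the start, were given for 33 of the 41 members. The E-box core CACGTG, which TFEB and many other helix-loop-helix factors can bind, was in the stretches given for 4 of the 33 members, namely Atg3, Atg5, Atg7 and Atg14 (12.1%), against 8.09% of 27025 genes. Both strands were searched, and the core reads the same on each. The RefSeq start used for Atg7 lies inside the gene, 27999 bases past its first start in GENCODE M21 on the same build. That start is 9066 bases from the nearest start of a transcript there, so the Atg7 stretch is not shown. Among the 32 other members the core was in 3 (9.38%), near the share of all genes, whose starts were not compared in this way. These 3 promoters are shown with the core in capitals, or in the second match of Atg3 the longer palindrome TCACGTGA that holds it, 5′ to 3′ on the strand of the gene. Atg3 lies at chr16:45158579-45158878 (plus strand), Atg5 at chr10:44268089-44268388 (plus) and Atg14 at chr14:47568385-47568684 (minus).
Atg3: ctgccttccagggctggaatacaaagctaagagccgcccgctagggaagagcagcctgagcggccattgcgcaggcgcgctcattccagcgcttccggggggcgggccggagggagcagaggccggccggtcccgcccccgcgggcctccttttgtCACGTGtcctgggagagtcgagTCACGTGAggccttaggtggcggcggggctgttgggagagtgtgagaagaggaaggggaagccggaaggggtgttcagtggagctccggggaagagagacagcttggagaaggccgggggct
Atg5: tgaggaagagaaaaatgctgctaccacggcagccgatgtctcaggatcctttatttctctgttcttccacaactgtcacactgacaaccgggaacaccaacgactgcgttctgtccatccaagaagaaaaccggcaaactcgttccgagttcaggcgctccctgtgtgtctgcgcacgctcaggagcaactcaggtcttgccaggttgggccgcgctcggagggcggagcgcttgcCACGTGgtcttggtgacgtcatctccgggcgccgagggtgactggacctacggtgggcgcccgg
Atg14: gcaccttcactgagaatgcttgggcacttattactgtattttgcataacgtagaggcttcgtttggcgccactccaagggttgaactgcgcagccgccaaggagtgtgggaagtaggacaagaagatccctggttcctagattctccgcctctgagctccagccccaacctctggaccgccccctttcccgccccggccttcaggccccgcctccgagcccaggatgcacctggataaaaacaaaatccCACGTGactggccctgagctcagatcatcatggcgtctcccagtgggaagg

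Of these genes, Atg3 and Atg5 fell in Model, while Atg7 and Atg14 were not called. In the Atg3 promoter the core occurs 2 times, once within the longer palindrome TCACGTGA, which was in 1.12% of all genes. The core starts 14 bases before the start site in Atg5 and 1 before it in Atg14. The forkhead motif GTAAACA was in promoters of 0 of the 33 members (4.05% of all genes). The antioxidant response element core TGACNNNGC was in 5, namely Ulk2, Atg13, Vmp1, Map1lc3b and Tax1bp1 (15.2%, against 13.99% of all genes). A match is a description of the letters, and binding was not measured. Rb1cc1, Becn1, Pik3c3, Wdr45b, Atg12, Atg16l1, Map1lc3a and Epg5 had no promoter in the table.

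The LC3 and GABARAP proteins are the ubiquitin-like tags placed on the membrane. Map1lc3a, an LC3 gene (ENSMUSG00000027602, chromosome 2, 155118217 to 155119993), had 69.1, 76.8, 73.9 and 62.6 FPKM in Ctrl 1 to 4, 42.0, 37.8, 34.9 and 37.9 in Model 1 to 4 and 24.6, 19.6, 30.6 and 29.5 in YHY 1 to 4. The 3 groups did not overlap and stood in the order Ctrl, Model, YHY. Map1lc3a fell in Model at -0.89 ± 0.15 (adjusted P = 2.97e-04) and again in YHY against Model at -0.55 ± 0.15 (adjusted P = 0.0250). For the second step the adjusted P was 0.147 with scaling by library size alone, 0.0785 with only the 8 mice compared, 0.0579 over the 9 mice of the authors' means, 0.0700 without Model 1, 0.0501 without Model 2, 0.0509 without Model 4, 0.0584 without YHY 1, 0.0587 without YHY 2 and 0.126 with offsets for gene length and GC content. Map1lc3b, whose protein is the usual LC3 marker (ENSMUSG00000031812, chromosome 8, 122317100 to 122325499), had 14.1, 16.4, 14.9 and 15.7 FPKM in Ctrl 1 to 4, 16.4, 15.6, 13.5 and 13.0 in Model 1 to 4 and 12.8, 9.75, 11.8 and 12.1 in YHY 1 to 4. Model and Ctrl overlapped, and every YHY mouse lay below every other mouse. Its log2 fold change was -0.064 ± 0.14 (adjusted P = 0.748) in Model against Ctrl, 0.039 with upper-quartile scaling, and -0.33 ± 0.14 (adjusted P = 0.128) in YHY against Model. Against Ctrl, Map1lc3b was lower in YHY at -0.39 ± 0.14 (adjusted P = 0.0260), with an adjusted P of 0.118 with upper-quartile scaling, 0.0571 without a filter beyond 1 count, 0.0637 without Ctrl 2 and 0.0707 without YHY 2.

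Gabarap (ENSMUSG00000018567, chromosome 11, 69881969 to 69885777) had 156, 169.9, 152 and 159 FPKM in Ctrl 1 to 4, 95.2, 56.2, 61.8 and 51.9 in Model 1 to 4 and 50.8, 40.7, 55.0 and 61.0 in YHY 1 to 4. All Ctrl mice were far above all db/db mice, and Model 1 was the highest of these. Gabarap fell in Model at -1.27 ± 0.19 (adjusted P = 1.31e-04), among members the largest fall, and in YHY against Model it stood at -0.35 ± 0.19 (adjusted P = 0.234). Gabarapl1 (ENSMUSG00000030161, chromosome 6, 129510123 to 129519309) had 210.4, 241, 248 and 203 FPKM in Ctrl 1 to 4, 168, 135, 132 and 131 in Model 1 to 4 and 109, 72.3, 134 and 112 in YHY 1 to 4. Ctrl lay above Model in every mouse, Model 1 stood apart from the 3 other Model mice, and YHY 3 lay within the Model range. Gabarapl1 fell in Model at -0.68 ± 0.18 (adjusted P = 0.00861) and was not called in YHY against Model, at -0.40 ± 0.18 (adjusted P = 0.159). Gabarapl2 (ENSMUSG00000031950, chromosome 8, 112667335 to 112680244) had 21.7, 18.1, 23.2 and 22.2 FPKM in Ctrl 1 to 4, 14.2, 12.6, 13.8 and 11.1 in Model 1 to 4 and 15.6, 8.13, 10.9 and 13.5 in YHY 1 to 4. Model mice were below Ctrl mice without overlap, and YHY mice lay on both sides of the Model range. Gabarapl2 fell in Model at -0.72 ± 0.18 (adjusted P = 0.00466), a call lost at an adjusted P of 0.0831 with offsets for gene length and GC content. In YHY against Model it stood at -0.10, and at 0.046 without YHY 2.

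Summed over these 5 genes, the level was 472, 523, 512 and 462 in Ctrl 1 to 4, 335, 257, 255 and 245 in Model 1 to 4 and 213, 150.5, 242 and 228 in YHY 1 to 4, in FPKM. Ctrl and db/db mice did not overlap, and Model 1 was the highest of the db/db mice. The group means were 492 ± 29.8 FPKM for Ctrl, 273 ± 41.8 FPKM for Model and 208 ± 40.4 FPKM for YHY (SD, n = 4). The make-up of the family differed as well. Gabarap gave 32.4% ± 2.00 of the sum in Ctrl, 23.9% ± 3.25 in Model and 25.1% ± 2.13 in YHY. Map1lc3b gave 3.11% ± 0.214, 5.39% ± 0.495 and 5.67% ± 0.715 (SD, n = 4 each).

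Cargo receptors moved in both directions. Optn encodes optineurin, a receptor for damaged mitochondria and bacteria (ENSMUSG00000026672, chromosome 2, 5025453 to 5068862), and was measured at 2.64, 2.89, 3.11 and 3.17 FPKM in Ctrl 1 to 4, 5.99, 7.30, 7.29 and 8.90 in Model 1 to 4 and 8.36, 7.13, 5.96 and 5.82 in YHY 1 to 4. Every db/db mouse lay above every Ctrl mouse, and YHY and Model overlapped. Optn rose in Model at 1.32 ± 0.16 (adjusted P = 2.45e-05), the lowest adjusted P among members, and stood at 1.21 ± 0.16 (adjusted P = 1.78e-05) in YHY against Ctrl. Between YHY and Model it differed by -0.11 ± 0.16 (adjusted P = 0.697). Sqstm1 encodes p62, a receptor for ubiquitin-tagged cargo (ENSMUSG00000015837, chromosome 11, 50090193 to 50101654), and had 118, 117, 107 and 130.1 FPKM in Ctrl 1 to 4, 66.3, 47.2, 55.6 and 53.4 in Model 1 to 4 and 62.9, 77.2, 52.8 and 64.7 in YHY 1 to 4. All Ctrl mice were above all db/db mice, and Model and YHY overlapped, with YHY 2 the highest of the db/db mice. Sqstm1 fell in Model at -1.09 ± 0.16 (adjusted P = 1.15e-04) and was lower in YHY than in Ctrl at -0.87 ± 0.16 (adjusted P = 3.15e-04). Relative to Model, Sqstm1 in YHY stood at 0.21 ± 0.16 (adjusted P = 0.418). Nbr1, a receptor related to p62, fell at -0.47 ± 0.15 (adjusted P = 0.0182), with an adjusted P of 0.0524 with upper-quartile scaling and 0.0640 without Model 4. Tax1bp1 fell at -0.41 ± 0.14 (adjusted P = 0.0302), with an adjusted P of 0.0994 with upper-quartile scaling, 0.0815 without a filter beyond 1 count, 0.0680 without Ctrl 2, 0.0664 without Ctrl 3, 0.0713 without Model 2, 0.0613 without Model 3, 0.0996 without Model 4 and 0.0735 with offsets for gene length and GC content.

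Calcoco1, a receptor for the endoplasmic reticulum and Golgi (ENSMUSG00000023055, chromosome 15, 102615212 to 102630613), had 6.75, 8.95, 7.71 and 7.64 FPKM in Ctrl 1 to 4, 8.78, 8.20, 7.76 and 5.54 in Model 1 to 4 and 12.1, 8.98, 11.9 and 10.8 in YHY 1 to 4. Every YHY mouse was above every Model mouse, by little in YHY 2, and Ctrl overlapped Model. Calcoco1 rose in YHY against Model at 0.53 ± 0.16 (adjusted P = 0.0385). This call was lost in most settings, with an adjusted P of 0.125 with scaling by library size alone, 0.0515 without a filter beyond 1 count, 0.0587 with only the 8 mice compared, 0.0565 with the replicate block, 0.0611 without Ctrl 1, 0.0678 without Ctrl 3, 0.0583 without Ctrl 4, 0.0595 without Model 2, 0.0937 without Model 3, 0.110 without Model 4, 0.0895 without YHY 1, 0.0869 without YHY 3 and 0.127 with offsets for gene length and GC content. Against Ctrl it stood at 0.50 ± 0.16 (adjusted P = 0.0166), with an adjusted P of 0.736 with scaling by library size alone, 0.111 without Ctrl 1, 0.0753 without Ctrl 3, 0.0716 without Ctrl 4 and 0.799 with offsets for gene length and GC content. In Model against Ctrl it was -0.036, and 0.066 with upper-quartile scaling.

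Over the 12 mice, the members whose log2 levels were most like those of Optn were Ulk1 (Pearson r = 0.888), Ambra1 (0.746) and Atg2a (0.661). With group means removed these were 0.483, 0.716 and 0.112, so for Ulk1 and Atg2a much of the likeness lay between groups.

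For fusion, Snap29 encodes a SNARE protein that joins the autophagosome to the lysosome (ENSMUSG00000022765, chromosome 16, 17223850 to 17248691), and had 10.1, 9.52, 10.2 and 10.1 FPKM in Ctrl 1 to 4, 5.79, 3.59, 3.84 and 4.71 in Model 1 to 4 and 3.37, 2.74, 3.08 and 3.75 in YHY 1 to 4. All Ctrl mice lay above all db/db mice, and Model and YHY overlapped narrowly. Snap29 fell in Model at -1.15 ± 0.16 (adjusted P = 7.31e-05) and was lower in YHY than in Ctrl at -1.63 ± 0.16 (adjusted P = 1.78e-06). Its difference between YHY and Model was -0.47 ± 0.16 (adjusted P = 0.0667), and it was called lower at an adjusted P of 0.0452 without Model 2 and 0.0412 without YHY 4. Snap29 lies across Pi4ka on the opposite strand, which had 326% as many counts. Its partner Stx17, the SNARE of the autophagosome (ENSMUSG00000061455, chromosome 4, 48124915 to 48186507), had 2.51, 2.84, 2.83 and 2.46 FPKM in Ctrl 1 to 4, 2.41, 2.46, 2.48 and 2.86 in Model 1 to 4 and 3.29, 4.14, 3.10 and 4.38 in YHY 1 to 4. Every YHY mouse was above every Model and Ctrl mouse, and Model and Ctrl overlapped. Stx17 rose in YHY against Model at 0.55 ± 0.15 (adjusted P = 0.0242), where the adjusted P was 0.0784 with scaling by library size alone, 0.0523 without a filter beyond 1 count, 0.0863 over the 9 mice of the authors' means, 0.0506 without Model 1, 0.0576 without Model 2, 0.0734 without Model 3, 0.0555 without YHY 2 and 0.0535 without YHY 4. Against Ctrl it stood at 0.49 ± 0.15 (adjusted P = 0.0116), with an adjusted P of 0.866 with scaling by library size alone, 0.0526 without a filter beyond 1 count, 0.0560 over the 9 mice of the authors' means, 0.0604 without Ctrl 1 and 0.0589 without Ctrl 4. In Model against Ctrl Stx17 was -0.060, and 0.043 with upper-quartile scaling.

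Members lower in Model were shorter genes than the rest. The 18 lower members had a median length of 3353.5 bases, against 6968 for the 21 not called. When all genes tested were split by length into 4 classes of like size, 5 of 5 members of the shortest class were lower in Model, where 15.1% of all genes of that class were. In the next classes it was 6 of 8 (20.97% of all genes), 2 of 11 (19.1%) and 5 of 17 (18.6%). Genes are not independent replicates, and as a description across genes the Spearman rho of length with the change in Model was 0.39 over the 41 members and -0.024 over all genes. For YHY against Model it was 0.37 and 0.19, and for YHY against Ctrl 0.43 and 0.070. In YHY against Model length went with the direction of change over all genes. From the shortest to the longest class, 1.22%, 3.05%, 5.97% and 12.3% of all genes were higher and 8.10%, 9.18%, 8.03% and 5.19% lower, and 17 of the 41 members are in the longest class. The part of length in the differences of the members was not tested beyond the offsets. With offsets for gene length and GC content, chosen after the data were seen, 15 members were lower and 2 higher, beside 17.6% and 18.4% of all genes. Pik3c3, Atg10, Gabarapl2 and Tax1bp1 lost their calls, and Atg4d gained its own.

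Beyond the 41 members, 62 of 63 listed genes of the wider pathway were found and 61 tested, with Calcoco2 listed at 0 counts. In Model against Ctrl 17 of the 61 fell and 12 rose (median -0.080), beside 18.5% and 19.6% of all genes. Among the 10870 genes as abundant as members 26.7% were lower and 19.8% higher, so both shares were near those of abundant genes. In YHY against Model 11 fell and 3 rose (median -0.0041), beside 7.62% and 5.63% of all genes, and 11.2% and 7.92% of abundant genes. Of 28 genes of other machinery, 9 fell and 6 rose in Model, the lowest adjusted P being those of the lipid scramblase Tmem41b at -0.81 ± 0.15 (adjusted P = 5.98e-04), of Sh3glb1 at -0.64 ± 0.13 (adjusted P = 9.60e-04), of the autophagosome-lysosome tether Tecpr1 at 1.196 ± 0.18 (adjusted P = 1.03e-04) and of Atg16l2 at 1.13 ± 0.17 (adjusted P = 1.16e-04). Of 15 further receptors tested, 5 fell and 1 rose. The mitochondrial receptors Bnip3 at -1.07 ± 0.12 (adjusted P = 1.77e-05) and Fundc1 at -1.04 ± 0.20 (adjusted P = 7.17e-04) fell. The receptor of the endoplasmic reticulum Sec62 rose at 0.59 ± 0.15 (adjusted P = 0.00649), with an adjusted P of 0.478 with scaling by library size alone. Of 18 upstream regulators, 3 fell and 5 rose. The AMPK subunit Prkaa2 at -0.91 ± 0.17 (adjusted P = 5.70e-04) and the mTOR activator Rheb at -0.64 ± 0.18 (adjusted P = 0.0115) fell. The transcription factors Foxo3 at 1.30 ± 0.15 (adjusted P = 1.70e-05) and Tfeb at 0.62 ± 0.13 (adjusted P = 0.00126) rose, and for Tfeb the adjusted P was 0.440 with scaling by library size alone and 0.767 with offsets for gene length and GC content.

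Under YHY against Model, 3 of the 28 genes of other machinery fell and 2 rose, beside 7.62% and 5.63% of all genes. Ei24 fell at -0.69 ± 0.13 (adjusted P = 0.00393), and the late endosome GTPase Rab7 at -0.57 ± 0.14 (adjusted P = 0.0162), the latter with an adjusted P of 0.102 with scaling by library size alone and 0.0591 with only the 8 mice compared. Wdfy3, an adaptor for aggregates, rose at 0.65 ± 0.17 (adjusted P = 0.0201), with an adjusted P of 0.0620 with scaling by library size alone, 0.0589 over the 9 mice of the authors' means, 0.0637 without Model 3, 0.0602 without Model 4 and 0.121 with offsets for gene length and GC content. Nrbf2, a BECN1 complex subunit, rose at 1.01 ± 0.30 (adjusted P = 0.0361), with an adjusted P of 0.0583 with scaling by library size alone, 0.0742 with only the 8 mice compared, 0.103 over the 9 mice of the authors' means, 0.0501 without Ctrl 3, 0.0982 without Model 1, 0.116 without Model 3, 0.0751 without YHY 1 and 0.0933 without YHY 2.

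Among the further receptors 5 fell and 1 rose in this comparison, where 7.62% of all genes fell and 5.63% rose. Bcl2l13, a mitochondrial receptor, fell at -0.73 ± 0.16 (adjusted P = 0.00998) and Tollip at -0.72 ± 0.16 (adjusted P = 0.0102), with an adjusted P of 0.0586 with scaling by library size alone for Bcl2l13 and 0.0688 with scaling by library size alone for Tollip. Ncoa4, the receptor for ferritin, rose at 0.59 ± 0.19 (adjusted P = 0.0496), with an adjusted P of 0.150 with scaling by library size alone, 0.104 over the 9 mice of the authors' means, 0.0717 without Ctrl 1, 0.0723 without Ctrl 3, 0.108 without Model 1, 0.0867 without Model 2, 0.134 without Model 3, 0.0689 without Model 4, 0.128 without YHY 3, 0.0960 without YHY 4 and 0.144 with offsets for gene length and GC content. Of the upstream regulators 3 fell and 0 rose by edgeR, with 5 higher at an unadjusted P under 0.05. Prkaa2 fell at -0.73 ± 0.17 (adjusted P = 0.0114), with an adjusted P of 0.0611 with scaling by library size alone. Rptor, a subunit of mTOR complex 1, fell at -0.68 ± 0.17 (adjusted P = 0.0193), with an adjusted P of 0.0590 with scaling by library size alone, 0.0537 with only the 8 mice compared, 0.0754 without Model 3 and 0.0509 without YHY 1.

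The make-up of the RNA differed between the same groups. Transcripts of the mitochondrial genome made up 19.5% ± 2.12 of the counts of Ctrl mice, 52.2% ± 7.68 of those of Model mice and 56.8% ± 5.21 of those of YHY mice (SD, n = 4). By mouse they were 18.6%, 22.7%, 18.4% and 18.5% in Ctrl 1 to 4, 41.2%, 58.9%, 55.3% and 53.4% in Model 1 to 4 and 53.8%, 64.6%, 54.6% and 54.2% in YHY 1 to 4. Model 1, the db/db mouse with the highest summed conjugation genes, had the lowest of the db/db values, and YHY 2, with the lowest sum, the highest. The 4 nuclear-retained RNAs, of which Malat1 was the most abundant, summed to 31.7, 30.9, 24.6 and 23.9 FPKM in Ctrl 1 to 4, 43.4, 88.1, 59.6 and 53.7 in Model 1 to 4 and 110.0, 110.4, 96.9 and 131 in YHY 1 to 4. No db/db mouse was as low as a Ctrl mouse, and 4 of 4 rose in Model and 2 of 4 in YHY against Model. Summed conjugation genes went the other way, at 529.9, 579.8, 572 and 519 FPKM in Ctrl 1 to 4, 379, 289, 291 and 277 in Model 1 to 4 and 242, 179, 273 and 262 in YHY 1 to 4. Here Ctrl lay above all db/db mice, and YHY below all Model mice. Markers of cell types differed too, in both directions. Their counts stand beside 18.5% of all genes lower and 19.6% higher in Model against Ctrl. In YHY against Model these shares of all genes were 7.62% and 5.63%. The 8 proximal tubule markers, with Slc34a1 the most abundant and none at 0, summed to 1035, 1281, 1083 and 991 FPKM in Ctrl 1 to 4, 859, 850.0, 915 and 753 in Model 1 to 4 and 413, 707, 489 and 928 in YHY 1 to 4. Of these 8, 3 fell in Model, and in YHY against Model 0 passed by edgeR, with 4 lower at an unadjusted P under 0.05. The 4 thick limb markers, with Umod the most abundant and none at 0, summed to 551, 312, 620.0 and 670.2 FPKM in Ctrl 1 to 4, 259, 184, 158 and 234 in Model 1 to 4 and 288, 178, 465 and 282 in YHY 1 to 4, and 3 of 4 fell in Model. The 7 collecting duct markers, with Aqp2 the most abundant, summed to 579, 361, 382 and 932 FPKM in Ctrl 1 to 4, 365, 224, 283 and 263 in Model 1 to 4 and 396, 147, 225 and 133 in YHY 1 to 4. Of these Avpr2 had 0 counts in Ctrl 2, Model 3, Model 4, YHY 1 and YHY 4 and did not pass the filter, and of the 6 tested 2 fell in Model and 1 in YHY against Model. The 4 markers of the distal convoluted tubule went the other way in Model, where 2 of 4 rose with a median of 0.98, and 1 fell in YHY against Model. With Pvalb the most abundant and none at 0, they summed to 118, 179, 101 and 93.3 FPKM in Ctrl 1 to 4, 234, 141, 181 and 153 in Model 1 to 4 and 73.5, 138, 55.9 and 103 in YHY 1 to 4. The ranges of these sums in Ctrl and Model overlapped. Summed as library-scaled counts, not divided by length, where Slc12a3 is the most abundant, they ran from 316 to 558 in Ctrl and from 689.8 to 753 in Model, without overlap. The 2 inner medulla markers, with Slc14a2 the most abundant and none at 0, summed to 37.2, 16.5, 43.5 and 65.7 FPKM in Ctrl 1 to 4, 17.0, 12.3, 7.53 and 13.8 in Model 1 to 4 and 41.7, 8.67, 41.7 and 13.3 in YHY 1 to 4, and Aqp4 fell in Model at -2.43 ± 0.53 (adjusted P = 0.00198). In FPKM these sums overlapped between Ctrl and Model only through Ctrl 2 and Model 1, and as library-scaled counts, from 101 to 381 in Ctrl and from 41.6 to 93.8 in Model, they did not. Of other lists, 1 of 5 endothelial, 1 of 4 mesenchymal and 1 of 5 leukocyte markers tested rose in Model and none fell. The 1 adrenal cortex marker tested rose, and of 2 adipocyte markers tested 0 were called by edgeR, with 0 at an unadjusted P under 0.05. The part of these differences in those of the members was not tested.

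**Figure D3:**
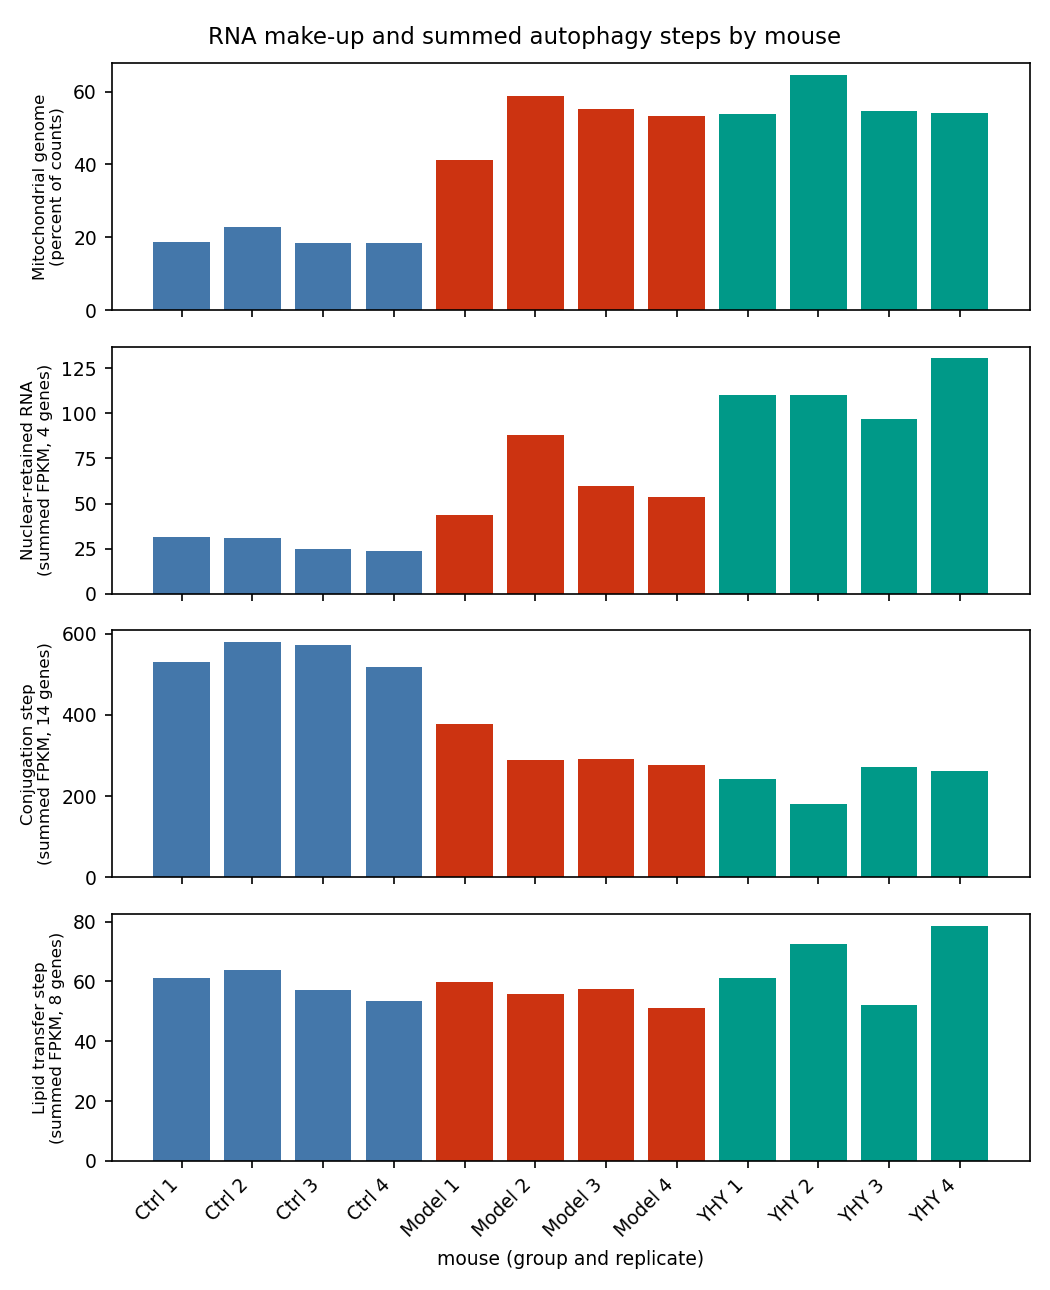
For each of the 12 mice, bars give the percent of counts from the mitochondrial genome, the summed FPKM of 4 nuclear-retained RNAs, of the 14 conjugation genes and of the 8 lipid transfer genes. Mitochondrial percent and nuclear-retained RNA are higher, and conjugation genes lower, in all db/db mice than in all Ctrl mice, and lipid transfer genes overlap between groups.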

How the data were processed

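Whole-number counts of reads per gene, with gene lengths, were deposited by the authors for 12 mice, after quality filtering and alignment to GRCm39. The submitters' notes name FastQC 0.11.9, Trimmomatic 0.39, HISAT2 2.2.1, SAMtools 1.12, featureCounts 2.0.1, DESeq2 1.34.0 and R 4.1.2, without giving the role of each. The authors' comparison tables hold group means of a scaled signal, each library's counts having been divided by its own factor, and these were used only to find which mice were averaged (Ctrl 1, 3 and 4, Model 2, 3 and 4, YHY 1, 2 and 3). In the table of YHY against Model the headers over the Model columns name Model 1, YHY 3 and YHY 4 instead, while its Model means were reproduced by Model 2, 3 and 4. Their 12 columns of values per mouse, fold changes and P, and the KEGG tables, were not used.

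Members were matched by gene name, and the 480 loci without a gene name (0.139% to 0.262% of counts) were kept in library sizes and tests. All 12 mice were fitted together with edgeR 4.0.16 under R 4.3.3 (TMM, filterByExpr, glmQLFit and glmQLFTest, two-sided), with the Benjamini-Hochberg adjustment over 17431 genes. For single members an exact permutation test, two-sided, set 4 mice against 4. FPKM used the deposited lengths and TMM-scaled library sizes. Replicates of a group differed by a chi-square of 18.8 to 154 per degree of freedom, so no library was a copy of another of its group. Member counts ran from 53 to 20415 per mouse. The analysis was tested on simulated data, where small fold changes were mostly missed, so a gene that was not called may still differ. Limits set for that test, on recovery and on false calls by DESeq2, were not met at first and were then changed. DESeq2 1.42.0, limma 3.58.1, version 1.17.8 of data.table, Python 3.11.15, pandas 2.3.3, numpy 2.4.6 and matplotlib 3.10.9 were also used.

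Members and lists were chosen with earlier results of these data known. Values by mouse are given for the member with the lowest adjusted P of each step in Model against Ctrl, for members called in YHY against Model, for 6 members the study measured by other assays, and for the LC3 and GABARAP family, 19 in all. Results for 1 further list of cell markers are not reported here. Of other pathway genes, those with the 2 lowest adjusted P per list and direction are named. Other members named beside counts were chosen after their values were seen. Alternatives were DESeq2, upper-quartile scaling, library size alone, mitochondrial transcripts removed before TMM, no filter beyond 1 count, at least 10 counts in every mouse, only the 8 mice compared, 9 mice, the replicate number as a block, the study's limits (a fold change over 1.2 and unadjusted P under 0.05) and each mouse left out. Offsets for gene length and GC content (GENCODE M21, with a value for 41 members and 95.9% of genes), and the following of other pathway genes under all alternatives, were chosen after seeing the data.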

Additional observations from a re-analysis of the deposited data

Results flagged for a closer look

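Of 195 groups of 4 mice, 15 held a mouse far from the other 3 by the gap to its nearest neighbour, where chance gives about 1 in 20, and 8 of these lay among the 123 groups of single members. Atg2a was at 9.07 FPKM in YHY 2, against 5.26 to 5.54 in the 3 other YHY mice. Atg2b was at 1.46 FPKM in Ctrl 4, against 1.11 to 1.15 in the 3 other Ctrl mice. Atg4d was at 4.74 FPKM in Ctrl 4, against 3.37 to 3.57 in the 3 other Ctrl mice. Atg10 was at 2.62 FPKM in YHY 4, against 3.73 to 3.88 in the 3 other YHY mice. Atg12 was at 3.36 FPKM in Model 1, against 2.62 to 2.69 in the 3 other Model mice. Gabarapl1 was at 168 FPKM in Model 1, against 131 to 135 in the 3 other Model mice. Stx17 was at 2.86 FPKM in Model 4, against 2.41 to 2.48 in the 3 other Model mice. Snap29 was at 9.52 FPKM in Ctrl 2, against 10.1 to 10.2 in the 3 other Ctrl mice. In Ctrl 2, 22.7% of counts came from the mitochondrial genome, against 18.4% to 18.6% in the other Ctrl mice. In YHY 2, 64.6% of counts came from the mitochondrial genome, against 53.8% to 54.6% in the other YHY mice. Ctrl 2 had 29632718 counts in total, against 32677732 to 33276634. Summed over the 5 LC3 and GABARAP genes, Model 1 had 335 FPKM, against 245 to 257. Summed over the 14 conjugation genes, Model 1 had 379 FPKM, against 277 to 291. Summed over 28 genes of other machinery, Ctrl 2 had 390.0 FPKM, against 349 to 350.3. Summed over 5 endothelial markers, Ctrl 2 had 19.8 FPKM, against 28.4 to 29.9. By mouse, Ctrl 2 stood apart in 5 of these values, Model 1 in 4, YHY 2 and Ctrl 4 in 2 each, and YHY 4 and Model 4 in 1 each. The values of Model 1 share genes, since both sums contain Gabarapl1. Ctrl 2, Model 1 and YHY 4 are absent from the authors' means, and the others are in them. The cause was not tested.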

How the results depend on the processing

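Model against Ctrl had 14 to 27 lower and 2 to 4 higher members over all alternatives, the 4 with upper-quartile scaling. In YHY against Model, DESeq2 gave 6 higher, library size alone 0 lower and 0 higher, only the 8 mice compared 1 lower, 9 mice 2 lower, and the study's limits 8 lower and 10 higher. In YHY against Ctrl, library size alone gave 2 higher, the offsets 4 and upper-quartile scaling 10. With single mice left out, counts ran from 15 to 19 lower and 2 to 3 higher in Model against Ctrl, 1 to 5 and 0 to 3 in YHY against Model, and 15 to 20 and 4 to 8 in YHY against Ctrl. With the replicate block the counts were 18 and 3, 3 and 2, and 16 and 6. The deviations of mice of one number from their group means had correlations from -0.17 to 0.12. No pairing by number was seen, though weak correlations cannot show that mice of one number shared no handling.

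Of 902 log2 fold changes of members under alternatives in each comparison, 27, 14 and 43 had the other sign. Epg5 in YHY against Ctrl was the only member called in the main fit among them. Members not called with TMM on all 12 mice were called in some of 22 alternatives, the study's limits left aside: in Model against Ctrl Becn1 in 8, Rb1cc1 in 5, Atg2a in 4, Atg2b in 3, Vmp1 in 2, Atg4d in 2, Ambra1 in 1, Wdr45b in 1, Atg16l1 in 1, Stx17 in 1 and Epg5 in 1; in YHY against Model Atg2b in 7, Snap29 in 2, Pik3c3 in 1, Tax1bp1 in 1 and Epg5 in 1; in YHY against Ctrl Nbr1 in 8, Atg4d in 6, Wipi2 in 5, Atg4b in 4, Atg16l1 in 4, Vmp1 in 3, Ulk2 in 2, Pik3r4 in 2 and Rb1cc1 in 1. The study's limits added Rb1cc1, Becn1 and Atg2a in Model against Ctrl; Becn1, Pik3c3, Ambra1, Atg2a, Atg2b, Atg7, Atg16l1, Map1lc3b, Gabarapl1, Snap29 and Epg5 in YHY against Model; Pik3r4, Wipi2, Atg4b, Atg4d, Atg16l1 and Nbr1 in YHY against Ctrl. With upper-quartile scaling, values with the other sign were Atg9a 0.0090, Atg16l1 0.041, Map1lc3b 0.039, Calcoco1 0.066, Stx17 0.043 and Epg5 0.039 in Model against Ctrl, Rb1cc1 0.048, Becn1 0.086 and Wipi1 0.10 in YHY against Ctrl. With scaling by library size alone, values with the other sign were Atg13 -0.21, Pik3r4 -0.37, Atg14 -0.27, Ambra1 -0.18, Atg2a -0.037, Wipi1 -0.28, Wipi2 -0.23, Wdr45 -0.16 and Atg7 -0.15 in Model against Ctrl, Atg13 -0.30, Pik3c3 -0.41, Pik3r4 -0.067, Atg14 -0.17, Atg2b -0.22, Atg9a -0.040, Wdr45 -0.27, Vmp1 -0.10, Atg16l1 -0.11 and Epg5 -0.081 in YHY against Ctrl. Without a filter beyond 1 count, values with the other sign were Pik3c3 -0.034 in YHY against Ctrl. With at least 10 counts in every mouse, values with the other sign were Calcoco1 0.0069 in Model against Ctrl, Becn1 0.023 and Wipi1 0.038 in YHY against Ctrl. With only the 8 mice compared, values with the other sign were Atg101 0.011 in YHY against Model, Pik3c3 -0.028 in YHY against Ctrl. Over the 9 mice of the authors' means, values with the other sign were Atg101 0.17 and Atg14 -0.058 in YHY against Model, Pik3c3 -0.045, Atg2b -0.081, Atg9a -0.036 and Wipi1 0.10 in YHY against Ctrl. With the replicate block, values with the other sign were Pik3c3 -0.0018 in YHY against Ctrl. With offsets for gene length and GC content, values with the other sign were Pik3r4 -0.071, Atg2a -0.093, Wdr45b 0.067, Atg16l1 0.0030 and Stx17 0.10 in Model against Ctrl, Atg101 0.12, Atg4b -0.0020 and Gabarapl2 0.043 in YHY against Model, Atg2b -0.075 and Wipi1 0.0089 in YHY against Ctrl. With single mice left out, members that took the other sign had these ranges: in Model against Ctrl Calcoco1 (-0.17 to 0.086), Atg9a (-0.24 to 0.0016), Wipi1 (-0.024 to 0.24), Pik3r4 (-0.042 to 0.16) and Atg16l1 (-0.16 to 0.022), in YHY against Model Atg101 (-0.15 to 0.10), Atg3 (-0.26 to 0.15), Ulk1 (-0.066 to 0.29), Gabarapl2 (-0.25 to 0.046) and Atg14 (-0.016 to 0.21), in YHY against Ctrl Pik3c3 (-0.079 to 0.061), Wipi1 (-0.18 to 0.091), Becn1 (-0.15 to 0.020), Wdr45 (-0.054 to 0.24), Rb1cc1 (-0.31 to 0.061) and Atg7 (-0.27 to 0.015). Where the alternative itself does not show it, the cause was not tested.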
